A study of Mus musculus with 9 samples.

Results

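The keratin genes of simple and stratified epithelium were followed in 4T1 cells, a mouse line of mammary carcinoma listed by the study as negative for the estrogen, progesterone and HER2 receptors. The set was named as a list of 10 genes, with no measured value in the rule, but it was chosen with earlier results of these data known. It holds Krt7, Krt8, Krt18 and Krt19 of simple epithelium, Krt5, Krt6a, Krt14, Krt15 and Krt17 of stratified epithelium and its appendages, and Krt80. All 10 were found among the 24421 genes of the count table, 8 of them with enough counts to be tested. The study grew 4T1 cells for 5 days and sequenced polyadenylated RNA of 3 libraries in each of 3 conditions, to ask which genes differ between spheroids and monolayers given extra palmitate, and between spheroids with and without it.

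The first condition was 3D culture on soft-agar-coated plates without extra palmitate, where the cells received the vehicle of the fatty acid. The second was the same 3D culture with 75 µM palmitate coupled to albumin, and the third was 2D culture with 75 µM palmitate. All cells were of the same line in serum-containing medium, so even the condition without extra palmitate had the fatty acids of the serum. A 2D culture without palmitate was not analysed here, so the response to palmitate was compared in 3D only. The labels do not say that the 3 libraries of a condition came from separate cultures, and p-values measure the spread between these libraries, which may be technical.

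Keratins are the intermediate filament proteins of epithelial cells. A type I keratin pairs with a type II keratin, and the pairs assemble into filaments that are anchored at desmosomes between cells and at hemidesmosomes on the basement membrane. Simple epithelia are built mainly on Krt8 and Krt18, with Krt7 and Krt19 in ducts, whereas the basal layer of stratified epithelia and the myoepithelial layer of the mammary gland are known for Krt5 and Krt14. Krt5, Krt6a, Krt7, Krt8 and Krt80 are type II, and Krt14, Krt15, Krt17, Krt18 and Krt19 are type I.

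The type II members lay on chromosome 15 and the type I members on chromosome 11, except Krt18, a type I gene that sits beside Krt8 on chromosome 15 (GRCm38, GENCODE M21). Krt18 (chr15:102028180-102032027, plus strand, 7 exons) and Krt8 (chr15:101996698-102004482, minus strand, 9 exons) were 23697 bp apart with 0 annotated genes between them. The coding sequence for the end of the helical rod, among the most conserved stretches of intermediate filaments, lets the members be compared there. It was located in the translated transcripts by the amino acid pattern T-Y/F-x-x-L-L-E-x-x, where x is any residue. Part of the bases shared by all was therefore fixed by the search, and Krt80 had no match. The stretch was found in 9 of the 10 members. It is printed 5′ to 3′ on the coding strand, with capitals on the 13 of 27 bases that all 9 share. Each stretch lies within a single coding exon.
Krt5, chr15:101708884-101708910, minus strand: ACcTACaGgaagcTGCTgGAgGgcgag
Krt6a, chr15:101691293-101691319, minus strand: ACcTACaGgaagcTGCTgGAaGgagag
Krt7, chr15:101423456-101423482, plus strand: ACcTACcGcaagcTGCTgGAgGgcgag
Krt8, chr15:101997861-101997887, minus strand: ACcTACcGcaagcTGCTgGAgGgggag
Krt14, chr11:100204116-100204142, minus strand: ACcTACcGccgtcTGCTgGAgGgagag
Krt15, chr11:100132999-100133025, minus strand: ACtTACcGgaaccTGCTcGAgGgccag
Krt17, chr11:100257441-100257467, minus strand: ACcTACcGccgtcTGCTgGAgGgagag
Krt18, chr15:102031482-102031508, plus strand: ACcTACcGccgctTGCTgGAgGatgga
Krt19, chr11:100140955-100140981, minus strand: ACcTACcGcagccTGCTgGAgGgccag
Over these 27 bases Krt14 and Krt17 were identical, Krt7 and Krt8 shared 26, and the partners Krt8 and Krt18 shared 19.

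Over the whole transcript, 50-base stretches were searched for in transcripts of other genes on either strand, so overlap with gene models on the other strand is included. The share that also occurs in another gene was 62.0% for Krt6a, 29.7% for Krt8 (mostly with the pseudogene Krt8-ps), 14.4% for Krt14 (mostly with Krt16) and 12.2% for Krt5. It was 4.00% for Krt17, 3.88% for Krt80 (mostly with Gm35853, a model on the other strand), 0.720% for Krt18, 0.666% for Krt15, 0.222% for Krt7 and 0% for Krt19. The strand setting of the counting and its handling of shared reads were not given in the sources used here, and gene models on the other strand overlap Krt5, Krt6a, Krt7, Krt8 and Krt80. The levels of these genes, and of Krt14, which shares stretches with Krt16 and Krt17, are uncertain to that extent.

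Library totals ranged from 6595514 to 31177756 counts, and the smallest was replicate 3 of the 3D cultures with palmitate. The ribosomal RNA gene Rn45s took 1.77 to 5.38% of the counts. Levels are CPM, a gene's counts scaled to a common library size, after adjustment of library sizes by the trimmed mean of M values. Of the epithelial genes that mark such a line, Epcam was at 707 ± 38.7 CPM and Cdh1 at 586 ± 12.8 CPM (SD, n = 3) in 3D with palmitate, and the basal regulator Trp63 was at 1.13 ± 0.326 CPM. Epcam and Cdh1 belong to a list of 12 luminal genes, of which 6 had at most 10 counts in any library. Markers of other cells were low: of 7 leukocyte genes 5 had at most 10 counts in any library, as had 4 of 5 endothelial and 4 of 7 fibroblast genes. The summed leukocyte level was 7.17 to 9.02 CPM in 3D without palmitate, 8.88 to 11.6 CPM in 3D with it and 24.6 to 27.9 CPM in 2D, mostly Cd68, and Cd3e and Adgre1 had 0 counts. The summed endothelial level was 0.380 to 0.582, 0.306 to 1.18 and 0.961 to 1.49 CPM in the same order. The summed fibroblast level was 91.8 to 107, 93.4 to 111 and 33.2 to 34.6 CPM in the same order, nearly all of it Pdgfra, and Lum had 0 counts. The part of these markers in the keratin results was not tested.

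The 4T1 cells carried the keratins of simple epithelium together with Krt14. The 10 members held 99.5 to 99.6% of all counts of the 52 keratin genes in the table, and the keratins together took 0.331 to 0.414% of a library. Per kilobase of transcript, the level in 3D with palmitate was highest for Krt18 (1051 ± 26.6 CPM per kb, SD, n = 3), followed by Krt8 (754 ± 38.0), Krt7 (148 ± 12.4), Krt19 (104 ± 6.14), Krt14 (75.7 ± 9.52), Krt80 (5.03 ± 0.568), Krt15 (1.80 ± 0.361) and Krt17 (0.808 ± 0.131). No neighbours in this order had overlapping libraries. The order was the same in 3D without palmitate. In 2D, Krt14 stood above Krt19 and Krt17 above Krt15. Per kilobase of coding sequence, Krt8 and Krt7 overlapped in 2D, as did Krt19 and Krt14. Length matters for Krt7 because its annotated transcript of 4094 bases holds 1371 coding bases.

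Krt5, the usual type II partner of Krt14, had 1 count in the 9 libraries together, in a 3D culture without palmitate. Krt6a, a keratin of hair follicles and wounded epidermis, had 0 counts. A limit of 3 counts over all libraries corresponds to 0.0179 CPM, for counting error only. Krt14 was thus counted at 112 to 197 CPM in the 9 libraries, and its usual partner was at the limit of detection at this depth. The type II keratins counted beside it were Krt8, Krt7 and, lower, Krt80.

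**Figure D1:**
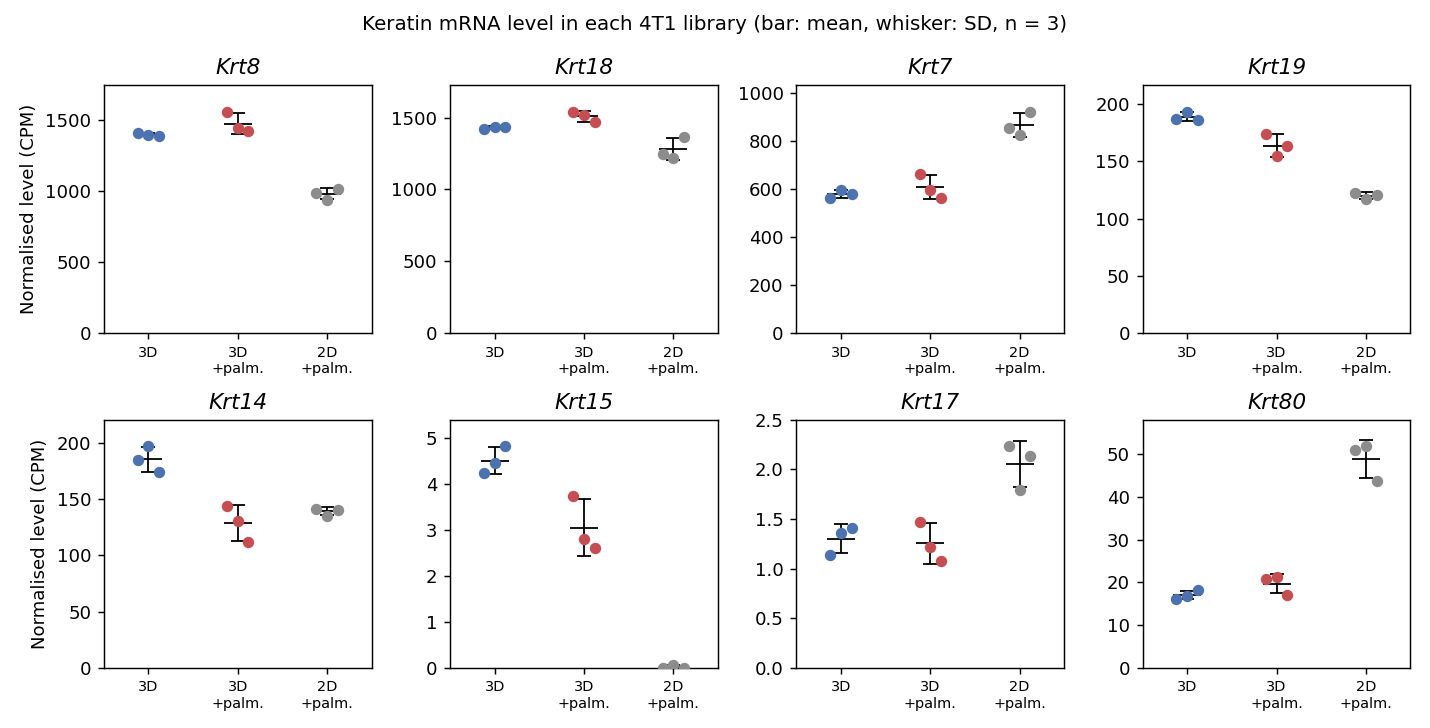
Level of the 8 tested keratins in CPM (vertical axes, from 0) in each library of the 3 conditions, with the mean and SD of 3 libraries. Krt8, Krt18, Krt19 and Krt15 sit higher in 3D than in 2D with palmitate, Krt7, Krt80 and Krt17 sit lower, and Krt14 is lower in 3D with palmitate than in 3D without it.

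Between 3D and 2D culture with palmitate, 7 of the 8 tested members passed an adjusted p of 0.05, against 68.3% of all 12575 genes tested (edgeR's quasi-likelihood test, adjusted over all genes tested after Benjamini and Hochberg). Krt8, Krt18, Krt19 and Krt15 were higher in 3D, as were 34.5% of all genes, and Krt7, Krt80 and Krt17 were lower, as were 33.9%. Libraries of the 2 conditions did not overlap for 7 members, as for 69.4% of all genes. The share called among the keratins was near that of all genes, so the directions and sizes within the set carry the description. The median log2 fold change was 0.07 over the members and 0.01 over all genes.

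Krt8, the main type II keratin of simple epithelium, was at 1561, 1444 and 1423 CPM in 3D and at 984, 939 and 1017 CPM in 2D, both with palmitate. Each 3D library lay above each 2D library, and the log2 fold change was 0.59 ± 0.06 (SE, adjusted p = 5.07e-07, edgeR). Its type I partner Krt18 was at 1542, 1520 and 1468 CPM in 3D and at 1248, 1222 and 1366 CPM in 2D. The groups again did not overlap, but the change was smaller, at 0.24 ± 0.06 (adjusted p = 0.00203, edgeR).

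The pair was therefore not counted in one fixed proportion. For each Krt18 count there were 1.01, 0.950 and 0.969 Krt8 counts in 3D with palmitate, 0.995, 0.972 and 0.969 in 3D without it, and 0.789, 0.769 and 0.745 in 2D. The 2D libraries lay apart from the 6 others. Means were 0.977 ± 0.0318 in 3D and 0.767 ± 0.0220 in 2D with palmitate (SD, n = 3), and the exact two-sided permutation test gave p = 0.1, the smallest that 3 against 3 libraries allow. This ratio was looked at after the values of both genes were known.

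Krt7, a type II keratin of ducts and glands, went the other way. It was at 662, 596 and 562 CPM in 3D and at 852, 824 and 922 CPM in 2D, with every 3D library below every 2D library. The log2 fold change was −0.51 ± 0.07 (SE, adjusted p = 1.27e-05, edgeR). Krt7 made up 15.4% of the keratin counts in 3D with palmitate and 25.1% in 2D, whereas Krt8 made up 37.6% and 28.4%. Krt7 and Krt8 together held 53.0 ± 0.744% in 3D and 53.6 ± 0.203% in 2D (SD, n = 3), and these groups overlapped (exact two-sided permutation test, p = 0.4). The number of Krt7 counts per Krt8 count was 0.411 ± 0.0147 in 3D and 0.883 ± 0.0209 in 2D, without overlap (p = 0.1, exact permutation test, the smallest possible). Both measures were chosen after the values were seen.

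**Figure D2:**
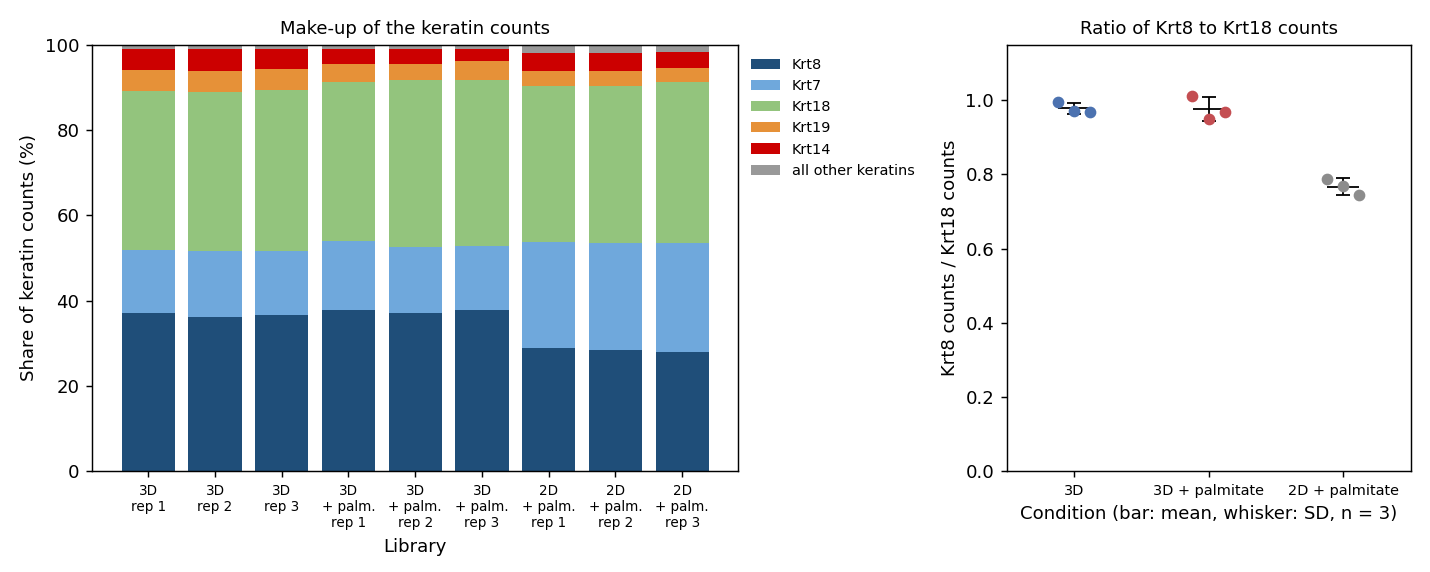
Left, the share of all keratin counts (%, vertical axis) taken by each keratin in each of the 9 libraries; right, Krt8 counts divided by Krt18 counts in each library with the mean and SD of 3 libraries. In 2D with palmitate the Krt7 share is 25.1% on average and the Krt8 share 28.4%, and the ratio falls between 0.745 and 0.789, below all 6 libraries of 3D culture.

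Krt19, the shortest of the epithelial keratins and a type I partner of Krt7 and Krt8, was at 174, 154 and 163 CPM in 3D and at 122, 117 and 121 CPM in 2D. The groups did not overlap, and the log2 fold change was 0.45 ± 0.06 (SE, adjusted p = 1.45e-05, edgeR). Krt19 thus changed with Krt8 and Krt18 in direction, and opposite to Krt7.

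Among the keratins of stratified epithelium, Krt15 differed most between 3D and 2D. Krt15, known from basal cells and the stem cells of the hair follicle, had 102, 37 and 17 counts in 3D with palmitate and 0, 2 and 0 counts in 2D. Scaled to the summed library totals, the 156 against 2 counts gave a ratio of 109, with an exact 95% interval of 29.6 to 905 that covers counting error only. The fitted log2 fold change of 6.45 ± 0.45 (SE, adjusted p = 1.19e-08, edgeR) rests on those 2 counts for its size. Krt13, a type I keratin of the upper layers of internal stratified epithelia and no member of the set, was alike at low level, with 116 counts against 8, a ratio of 20.2 (9.92 to 47.9) and a log2 fold change of 4.29 ± 0.44 (adjusted p = 7.98e-07, edgeR).

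Krt80, a type II keratin of several epithelia, was at 20.8, 21.2 and 17.2 CPM in 3D and at 50.9, 51.9 and 43.8 CPM in 2D. Its log2 fold change of −1.28 ± 0.09 (SE, adjusted p = 2.29e-08, edgeR) was the largest drop within the set, and the groups lay far apart. Krt17, a type I keratin of hair follicles that is induced in injured epidermis, had 40, 16 and 7 counts in 3D and 27, 56 and 48 counts in 2D. In CPM this was 1.47, 1.22 and 1.07 against 2.23, 1.79 and 2.14, without overlap, and the log2 fold change was −0.60 ± 0.22 (adjusted p = 0.0245, edgeR). The call for Krt17 was lost with DESeq2 (adjusted p = 0.0975) and when 1 of 4 single libraries was left out: replicate 2 or 3 of 3D with palmitate (0.0726 and 0.0547), or replicate 1 or 3 of 2D (0.0558 and 0.0710).

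Krt14, the type I keratin of basal and myoepithelial cells, was at 144, 130 and 112 CPM in 3D and at 141, 135 and 141 CPM in 2D with palmitate. The groups overlapped, and the log2 fold change was −0.10, with a 95% interval of −0.28 to 0.07 (adjusted p = 0.280, edgeR). It was the only tested member without a call in this comparison. Without replicate 1 of 3D with palmitate, the highest of its group, the value was −0.19 and passed the test (adjusted p = 0.0332).

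Palmitate changed 1 of the 8 tested members in 3D culture, against 2.19% of all genes tested, and that member was Krt14. It was at 185, 197 and 174 CPM in 3D without palmitate and at 144, 130 and 112 CPM with it. Every treated library lay below every untreated one. The log2 fold change was −0.52 ± 0.08 (SE, adjusted p = 0.00517, edgeR), in a direction in which 0.811% of all genes were called. Leaving out single libraries gave −0.61 to −0.43, and the call held each time. Both comparisons use the same 3D libraries with palmitate, and the values stand side by side: Krt14 averaged 185 ± 11.3 CPM in 3D without palmitate, 129 ± 16.2 CPM in 3D with it and 139 ± 3.44 CPM in 2D with it (SD, n = 3).

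The other 7 tested members did not pass the test for palmitate. Krt19 was at 187, 194 and 186 CPM without palmitate and at 174, 154 and 163 CPM with it, with a log2 fold change of −0.20 ± 0.06 (SE, adjusted p = 0.103, edgeR). Its groups did not overlap, and it passed under DESeq2 (−0.21, adjusted p = 0.0417), after removal of a GC and length trend (−0.26, adjusted p = 0.0191) and without replicate 3 of 3D with palmitate (−0.20, adjusted p = 0.0346). Krt15 was at 4.25, 4.46 and 4.83 CPM without palmitate and at 3.75, 2.81 and 2.60 CPM with it. Its groups did not overlap either, but the value of −0.48 ± 0.19 did not pass (adjusted p = 0.209, edgeR).

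For the main pair, the intervals for palmitate were narrow. Krt8 was at 1412, 1397 and 1391 CPM without palmitate and gave a log2 fold change of 0.08, with a 95% interval of −0.05 to 0.20 (adjusted p = 0.543, edgeR). Krt18 was at 1418, 1437 and 1435 CPM and gave 0.08, with an interval of −0.05 to 0.20 (adjusted p = 0.534, edgeR). For both genes the treated libraries lay above the untreated ones without overlap. Krt14, Krt15 and Krt19 lay below without overlap, so that 5 of the 8 members did not overlap in one direction or the other, against 18.6% of all genes. The members were chosen with earlier results of these data known, so this excess is a description and was not tested. Krt7 was at 564, 596 and 578 CPM without palmitate, overlapped the treated group and gave 0.07 (−0.08 to 0.22, adjusted p = 0.666, edgeR). Krt80, at 16.2, 16.7 and 18.2 CPM, gave 0.24 (adjusted p = 0.245), and it passed only without replicate 3 of 3D with palmitate (0.30, adjusted p = 0.0441). Krt17 gave 0.04 with an interval of −0.47 to 0.55 (adjusted p = 0.959, edgeR), too wide at this depth to tell a modest change in either direction.

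**Figure D3:**
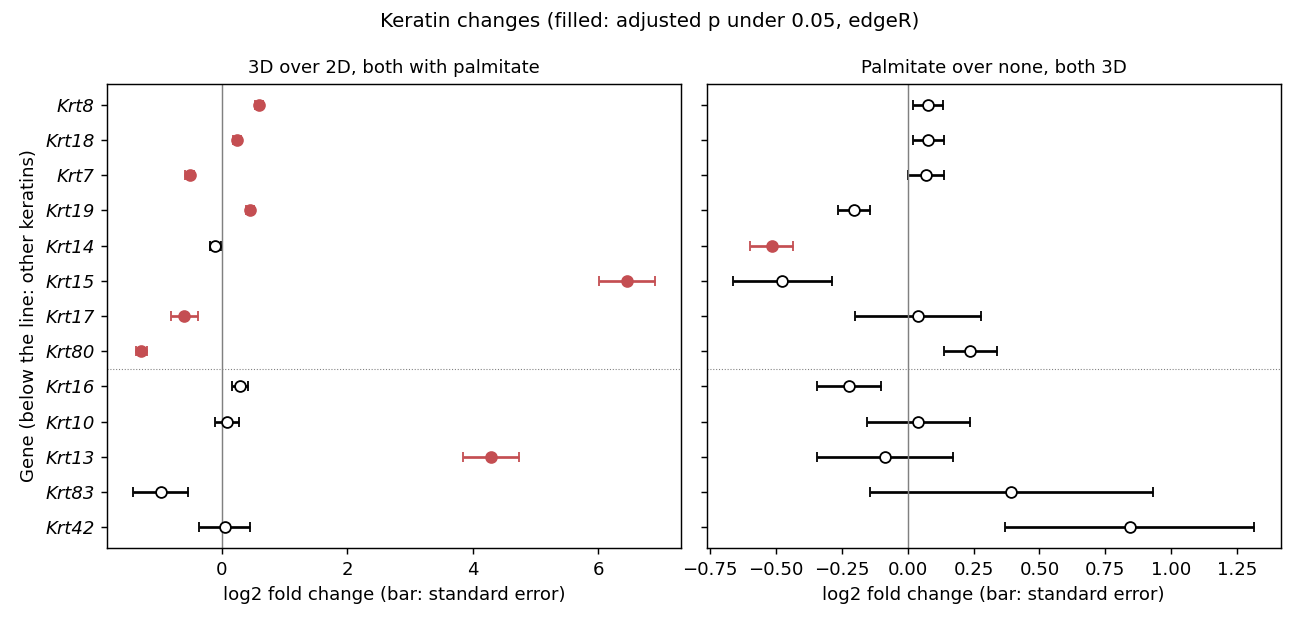
Log2 fold change with its standard error (horizontal axes, separate scales) of the 8 tested members and, under the dotted line, the 5 other keratins tested; filled points passed an adjusted p of 0.05 in edgeR. For culture, 4 members and Krt13 lie to the right and 3 members to the left, whereas for palmitate the single filled point is Krt14 at −0.52.

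The summed type I level over the summed type II level, per kilobase of transcript, was 1.36 ± 0.0374 in 3D with palmitate, 1.43 ± 0.0144 in 3D without it and 1.45 ± 0.0232 in 2D with it (SD, n = 3). The ratio in 3D with palmitate was lower by 0.0893 (log2) than in 2D and by 0.0686 than in 3D without palmitate, each without overlap and each with an exact two-sided permutation p of 0.1, the smallest possible. The direction between 3D and 2D depended on the length used: it was higher in 3D by 0.0825 in CPM and by 0.106 per kilobase of coding sequence. No direction for the balance of the keratin types between 3D and 2D is therefore given. The keratins as a whole took 0.389 ± 0.0223% of the counts in 3D and 0.345 ± 0.0190% in 2D with palmitate, a ratio of 1.13 without overlap (p = 0.1, exact permutation test), and palmitate in 3D gave a ratio of 1.01 with overlap (p = 0.9).

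Of the 42 other keratin genes in the table, 5 could be tested. Krt13 passed between 3D and 2D in edgeR, where DESeq2 called Krt83 too, a hair keratin with −0.97 ± 0.44 in edgeR (adjusted p = 0.0627). With palmitate 0 of the 5 passed in edgeR or DESeq2, and 0 had an unadjusted p under 0.05. Krt16, the type I keratin of proliferating epidermis, gave 0.29 ± 0.13 between 3D and 2D (adjusted p = 0.0522) and −0.22 ± 0.12 with palmitate (adjusted p = 0.371, edgeR). Krt10, the type I keratin of the suprabasal epidermis, gave 0.07 ± 0.19 and 0.04 ± 0.19. Krt42, another type I keratin, gave 0.05 ± 0.41 (adjusted p = 0.926) and 0.84 ± 0.47 (adjusted p = 0.384, edgeR).

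The 2 genes that share a locus can be set beside their start regions, since both rose in 3D by unequal amounts. RefSeq promoter windows (GRCm38.p6, 250 bases before to 50 after the start) were at hand for Krt5, Krt7, Krt8, Krt14 and Krt18. They were searched on both strands for the Grainyhead-like motif AACNGGTT, the AP-1 motif TGANTCA, the TATA box TATAAA and the TEAD motif GGAATG, which occurred in 2.09%, 7.81%, 13.6% and 14.7% of all 32851 windows. The Krt8 and Krt18 windows follow, 5′ to 3′ on the gene's strand, with motif matches in capitals.
Krt8, chr15:102004293-102004592, minus strand: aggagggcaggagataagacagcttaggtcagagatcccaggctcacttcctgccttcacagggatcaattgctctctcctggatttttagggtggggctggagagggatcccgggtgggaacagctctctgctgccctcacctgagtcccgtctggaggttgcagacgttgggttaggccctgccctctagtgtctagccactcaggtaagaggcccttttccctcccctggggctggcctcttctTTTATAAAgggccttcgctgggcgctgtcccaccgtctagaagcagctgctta
Krt18, chr15:102027966-102028265, plus strand: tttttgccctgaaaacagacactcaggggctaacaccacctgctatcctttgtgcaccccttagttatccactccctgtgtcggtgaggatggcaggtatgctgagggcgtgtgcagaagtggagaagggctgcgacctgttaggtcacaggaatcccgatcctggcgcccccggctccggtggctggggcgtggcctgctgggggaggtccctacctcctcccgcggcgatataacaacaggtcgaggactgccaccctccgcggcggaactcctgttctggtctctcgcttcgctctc
Krt8 held the TATA box letters on both strands in overlapping positions. Their first bases are at −3 and −1 from the RefSeq start, so both matches straddle it. Krt18 held none of the 4 motifs in this window. Among the other windows, Krt14 held the TEAD motif, and Krt5 and Krt7 held none. These are letter matches in the stated window, which starts from the RefSeq start. The RefSeq start lay downstream of the annotated GENCODE start by 140 bp for Krt8 and 36 bp for Krt18. The distance was 1518 bp for Krt14 and 1360 bp for Krt7, whose windows lie wholly within the annotated genes. The Krt14 match is therefore downstream of the GENCODE start of that gene.

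Most of the listed genes whose products anchor or regulate keratin filaments were higher in 3D. Of 16 such genes, all tested, 13 rose, 2 fell and 1 did not pass between 3D and 2D with palmitate, where 34.5% of all genes rose and 33.9% fell. The median log2 fold change was 0.78 against 0.01 over all genes. This list, like the other gene lists below, was chosen with earlier results of these data known. An excess over all genes is thus a description and was not tested. Itgb4, the hemidesmosome integrin that binds plectin, rose most, from 114 ± 2.75 CPM in 2D to 620 ± 54.2 CPM in 3D (2.44 ± 0.07, SE, adjusted p = 1.58e-12, edgeR). Its partner Itga6 rose by 1.32 ± 0.07 (adjusted p = 1.53e-09), and the linker plectin, Plec, by 0.84 ± 0.10 (adjusted p = 2.50e-06, edgeR).

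The desmosome proteins did not all move together. Pkp1, the plakophilin of stratified epithelia, rose by 1.63 ± 0.07 (adjusted p = 5.81e-11), whereas Pkp2, the plakophilin of simple epithelia and heart, fell by 1.38 on the log2 scale (SE 0.07, adjusted p = 2.97e-10, edgeR). Periplakin, Ppl, rose by 1.44 ± 0.07 and envoplakin, Evpl, by 1.16 ± 0.09, both plakins that link filaments to the cell edge. Desmoplakin, Dsp, which ties keratins to the desmosome, rose by 0.71 ± 0.07 (adjusted p = 7.47e-07), and plakoglobin, Jup, by 1.26 ± 0.08 (adjusted p = 9.44e-09, edgeR). Trichoplein, Tchp, which binds keratin filaments, fell by 0.49 (SE 0.11), and epiplakin, Eppk1, gave 0.11 ± 0.12 without a call.

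With palmitate, 1 of the 16 genes passed in edgeR and 5 in DESeq2. Of all genes, 2.19% passed in edgeR and 395 of 11460 in DESeq2. Pkp1 was at 64.1 ± 2.44 CPM in 3D without palmitate and at 51.6 ± 1.23 CPM with it, and fell by 0.31 on the log2 scale (SE 0.06, adjusted p = 0.0226, edgeR). The 4 others that passed in DESeq2 gave, in edgeR, −0.26 for Dsp (adjusted p = 0.0775), −0.27 for Ppl (0.0557), −0.32 for Evpl (0.0563) and −0.25 for Itgb4 (0.0664), and for each of them the treated libraries lay below the untreated ones without overlap. Over the list, 7 of 16 genes did not overlap, against 18.6% of all genes. The median of the 16 was −0.07 against 0.01 over all genes.

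**Figure D4:**
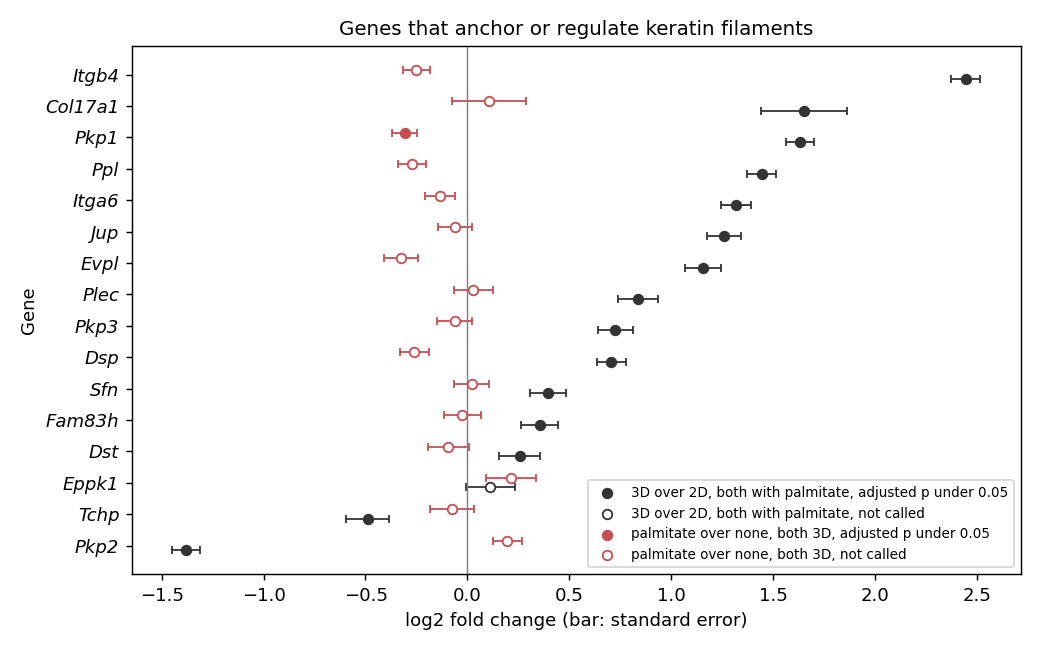
Log2 fold change with standard error (horizontal axis) of 16 genes that anchor or regulate keratin filaments, black for 3D over 2D with palmitate and red for palmitate over none in 3D; filled points passed an adjusted p of 0.05 in edgeR. For culture 13 lie to the right with a call, Itgb4 farthest at 2.44, and Pkp2 lies at −1.38; for palmitate Pkp1 alone is filled.

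Of 20 tested transcription and splicing regulators of epithelia, 13 rose, 2 fell and 5 did not pass between 3D and 2D with palmitate, with a median of 0.58. The number called was near the 68.3% of all genes, of which 34.5% rose and 33.9% fell. Ovol1 rose by 1.67 ± 0.11 (adjusted p = 4.32e-09), Klf5 by 1.14 ± 0.07 (adjusted p = 5.86e-09) and Ehf by 3.63 ± 0.27 (adjusted p = 2.97e-08, edgeR). Trp63, which regulates basal keratins such as Krt5 and Krt14 and also stands in the basal list, was higher in 3D by 3.28 ± 0.48 (adjusted p = 2.91e-05) but at 1.13 ± 0.326 against 0.102 ± 0.0919 CPM. Elf3 fell by 0.43 (SE 0.09), and so did the splicing factor Esrp2 (SE 0.08). Grhl2, a regulator of epithelial junction genes, gave 0.09 ± 0.07 (adjusted p = 0.214, edgeR).

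With palmitate, 3 of these 20 passed in edgeR, each lower, and 4 passed in DESeq2. Of all genes, 0.811% were called lower in edgeR, and DESeq2 called 395 of 11460, of which 160 were lower. The median of the 20 was −0.12. Among the 3, the epithelial splicing factor Esrp1 fell by 0.41 (SE 0.07, adjusted p = 0.00705), and Zfp750, a regulator of epidermal differentiation, fell by 1.14 (SE 0.23, adjusted p = 0.0241, edgeR) from 2.83 ± 0.561 to 1.37 ± 0.265 CPM.

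Genes of the cornified envelope, the shell of the outermost epidermal cells, were mostly low: 6 of the 30 in the table could be tested, 23 never exceeded 10 counts in a library, and 13 of these were at 0 throughout. Between 3D and 2D, 4 rose, 1 fell and 1 did not pass, with a median of 0.96, beside 34.5% higher and 33.9% lower of all genes. S100a14, a calcium-binding protein, rose by 4.18 ± 0.20 (adjusted p = 2.44e-10) and corneodesmosin, Cdsn, fell by 1.76 (SE 0.14, adjusted p = 5.00e-08, edgeR). With palmitate, S100a14 alone of the 6 passed, against 2.19% of all genes. It fell by 0.75 (SE 0.12, adjusted p = 0.00525, edgeR) from 14.5 ± 0.620 to 8.59 ± 0.654 CPM. The 5 others were not called, and each had a log2 fold change above 0. The median of the 6 was 0.48, and 5 of the 6 did not overlap, against 18.6% of all genes. An unadjusted p under 0.05 was reached by 4 of the 6 (edgeR).

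Of 8 tested intermediate filament genes other than keratins, 1 rose and 4 fell between 3D and 2D with palmitate, with a median of −0.18. The number called was near the 68.3% of all genes. Vim, the filament gene of mesenchymal cells, was at 2580 ± 252 CPM in 3D and 3144 ± 166 CPM in 2D, and fell by 0.28 (SE 0.07, adjusted p = 0.00288, edgeR). Nes fell by 0.39 (SE 0.09), Lmnb1 by 0.48 (SE 0.06) and Lmnb2 by 0.43 (SE 0.07), and the nuclear lamin Lmna rose by 0.60 ± 0.08. With palmitate, Vim alone passed of the 8, and it rose by 0.45 ± 0.07 (adjusted p = 0.00599, edgeR) from 1892 ± 78.1 CPM. Krt14 and Vim were thus called in opposite directions with palmitate, whereas Krt8 and Krt18 were not called.

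Markers of the mammary layers were called in both directions between 3D and 2D, as were all genes, of which 34.5% rose and 33.9% fell. Of 12 luminal genes in the table, 6 could be tested, and 6 had at most 10 counts in any library. Among the 6 tested luminal genes, 3 rose, 2 fell and 1 did not pass. The adhesion gene Epcam rose by 1.43 ± 0.06 (adjusted p = 5.81e-11), the tight junction genes Cldn3 and Cldn4 fell by 0.79 (SE 0.14) and 0.82 (SE 0.09), and the cadherin Cdh1 gave 0.12 ± 0.06 (adjusted p = 0.0589, edgeR). Esr1, the estrogen receptor gene, was at 12.9 ± 0.803 CPM in 3D and 8.80 ± 1.61 CPM in 2D with palmitate (SD, n = 3). It rose by 0.55 ± 0.14 (SE, adjusted p = 0.00318, edgeR). The study's listing of the line as receptor-negative does not name its measure, so this mRNA level is not set against it. Of 9 basal genes in the table, 5 could be tested, and 3 had at most 10 counts in any library. Among the 5 tested basal genes, 3 rose, 1 fell and 1 did not pass: Mylk rose by 1.49 ± 0.10 and Cdh3 fell by 1.62 (SE 0.40). With palmitate, 0 of the 6 luminal genes passed in edgeR, with a median of −0.11, while 1 had an unadjusted p under 0.05 and 1, Epcam, passed in DESeq2. Of the 5 basal genes 0 passed in edgeR or DESeq2 and 0 had an unadjusted p under 0.05, with a median of −0.08.

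The keratins did not share one pattern over the 9 libraries. Likeness was measured as the distance between the log2 CPM profiles of 2 genes, each centred on its own mean, among 12574 other genes, so that a small distance means nearly parallel levels. For Krt8 the nearest genes were Itm2c (distance 0.116) and Pafah2 (0.122), and its partner Krt18 was at place 1583 (distance 0.503). For Krt18 they were Snx1 (0.102) and Akr1a1 (0.104), with Krt8 at place 2761. Krt7 lay nearest to Cops6 (0.0793) and Lmo4 (0.0801), and Krt19 was far from it, at place 9298.

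For Krt19 the nearest genes were Dagla (0.136) and Timp2 (0.143), and for Krt14 Zxda (0.233) and Phldb3 (0.240). Krt80 lay nearest to Stbd1 (0.247) and Nup210 (0.285), and Krt17 to Gatb (0.237) and Fam58b (0.258). Krt15 lay farther from its nearest genes, with S100a16 at 0.428 and Ugt1a6a at 0.573. The distance also grows with the size of the changes, and the Krt15 and S100a16 profiles were correlated at 0.998. None of the nearest pairs named here was a keratin.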

How the data were processed

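RNA-seq of 9 4T1 libraries (3 conditions, 3 libraries each) was used. Per the labels and methods, the authors made stranded mRNA libraries, trimmed and checked reads (FastQC 0.11.9), aligned them with HISAT2 2.1.0 to GRCm38/mm10 and counted reads per gene with HTSeq. The annotation and strand setting of the counting are not given in the sources used here. The deposited table holds these raw counts for 24421 genes, 6595514 to 31177756 per library.

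Genes with enough counts (filterByExpr) were fitted with edgeR 4.0.16 (R 4.3.3, limma 3.58.1): TMM scaling, quasi-likelihood, all 9 libraries in one fit without covariates, and Benjamini-Hochberg adjustment over 12575 genes at 0.05. The adjusted p-values and fold changes come from this fit, ± values of fold changes are standard errors, and 95% intervals use the fit's degrees of freedom. Single ratios were tested by exact permutation. The script was tested on simulated data. Alternatives were DESeq2 1.42.0 (which the authors used, in another version), its size factors, library size alone, the 2 compared groups alone, no filter and a stricter filter (10 counts in every library), a replicate block, the Rn45s share as a covariate, removal of a GC and length trend, and leaving out each library. The type I to type II ratio was also computed in CPM and over all keratins. Coding length and the Krt8 to Krt18 ratio were added after seeing the data.

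Lengths, positions and transcripts are from GENCODE M21 (23376 genes matched by symbol, 670 by synonym, 375 not), and promoters from RefSeq (5 of 10 members matched). The members and all gene lists were chosen with earlier results of these data known. Named were all members, the 5 other keratins with the highest mean count and, from each list, tested genes with the smallest p first, then others by role, and the 2 nearest genes per member. The values of 1 listed gene are not reported here.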

Additional observations from a re-analysis of the deposited data

How the results depend on the processing

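Of 284 recomputed fold changes of single keratins, 268 kept direction and side of the threshold, 5 passed that had not, 5 no longer passed and 6 turned direction. Members called between 3D and 2D with palmitate numbered 7 and ranged from 6 to 8 over single libraries left out, with 5 under the stricter filter, where fewer genes were tested. With palmitate the 1 called member became 2 under DESeq2, 2 without the GC and length trend, and 1 to 3 over single libraries left out, 3 without replicate 3 of 3D with palmitate. All genes called with palmitate numbered 275 (173 higher, 102 lower), 1901 without that library, 1004 without the GC and length trend, 617 without a filter on low counts, 77 with the 2 groups alone, 50 with the Rn45s share as a covariate and 71 to 200 without any other single library. Scaling by library size alone gave 106 higher and 121 lower, and DESeq2 called 395 of 11460 genes. Krt14 between 3D and 2D turned to 0.0235 without the GC and length trend. With palmitate, Krt7 ranged from −0.00 to 0.12 over single libraries left out (lowest −0.000529) and Krt17 from −0.15 to 0.11 (−0.06 without replicate 1 of 3D without palmitate), and Krt17 was −0.0354 with the Rn45s covariate and −0.0748 without the GC and length trend. The log2 difference of the type I to type II ratio between 3D and 2D was 0.0825 in CPM, 0.106 per coding kilobase and −0.348 for Krt18 to Krt8 alone, and −0.105 to −0.0668 over single libraries left out. With palmitate it was 0.00262 for Krt18 to Krt8 alone and −0.0839 to −0.0460 over single libraries left out. The causes were not tested. Same-numbered libraries showed no sign of deviating together (correlations −0.238 to 0.145 over 9 pairs, −0.173 to 0.28 over 18 other pairs). With 3 libraries per condition this cannot exclude pairing by number. With a replicate block 7 and 1 members were called, with 111 of all genes for palmitate. Krt15 and Krt17 are limited by depth, at 0 to 102 counts a library.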
